A study of Mus musculus with 10 samples.

Results

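The islands of butyrylated lysine 5 of histone H4 (H4K5bu) and of acetylated lysine 5 of histone H4 (H4K5ac) in mouse round spermatids were compared with each other. An island is a stretch of genome in which ChIP reads were enriched over input, as called by the authors. The members were all islands of these 2 lists on chromosomes 1 to 19, which were 40185 for H4K5bu and 36549 for H4K5ac, together 76734 of the 301484 islands in the 8 lists of the series. Membership did not depend on any value of an island other than its having been called.

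The series held 10 ChIP-seq libraries from fractionated spermatogenic cells of the testis, strain Oncins France 1, at 2 stages, spermatocytes and round spermatids. Each stage had 1 library for each of 4 antibodies, against H4K5ac, H4K5bu, H4K8ac and H4K8bu, and 1 input library without antibody. The H4K5ac antibody was a gift from Dr H. Kimura and the H4K5bu antibody came from PTM biolabs, so the modification and the antibody cannot be told apart. Both round spermatid lists compared here came from mononucleosomes and were called against the same round spermatid input, with 1 library a side. There was no replicate, so no test was made, and a difference between the lists cannot be set against the spread between preparations. No source used here gives the age of the animals or the number pooled, and the identity of the cells could not be checked against gene markers because the islands were not assigned to genes.

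Acetylation and butyrylation of a histone lysine are written by acyltransferases from acetyl-CoA and butyryl-CoA. Both remove the positive charge of the lysine, the butyryl chain being the longer, and 1 lysine carries only 1 of them at a time. Acetylated H4 tails at lysines 5 and 8 are bound by the first bromodomain of BRDT, the testis member of the BET family, which accommodates a butyryl group at lysine 5 poorly. Round spermatids are the haploid cells that follow meiosis and that later replace most of their histones by transition proteins and protamines.

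Butyryl and acetyl were called over nearly the same amount of genome. The H4K5bu islands covered 182.03 Mb and the H4K5ac islands 182.17 Mb, and 148.91 Mb lay in both, which was 81.8% of the butyryl and 81.7% of the acetyl bases. The H4K5bu list had more and shorter islands, with a median width of 3200 bp against 3600 bp. The median H4K5bu island held 120 ChIP and 56 input reads and had a deposited fold over input of 3.48, and the median H4K5ac island held 124 ChIP and 64 input reads and had a fold of 4.54. In all islands together there were 9080192 ChIP reads of H4K5bu and 8275605 of H4K5ac. The fold divides ChIP by input reads and multiplies by a constant for the 2 library sizes, and by these constants the butyryl library was 1.44 times as large as the acetyl library.

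Most islands of either mark had a counterpart of the other. Of the H4K5bu islands 85.5% (95% exact interval 85.1 to 85.8) shared at least 1 bp with an H4K5ac island, and of the H4K5ac islands 90.4% (90.1 to 90.7) shared at least 1 bp with an H4K5bu island. Here and throughout, exact intervals of shares take the called islands as independent, and those of folds cover counting error of the reads. Neither covers the spread between preparations. The 2 lists fell into 41626 separate sets, and in 29857 of them 1 butyryl island met 1 acetyl island. These 1:1 pairs held 74.3% of the butyryl and 81.7% of the acetyl islands, and 78.8% and 80.0% of the ChIP reads in islands. The sets of several islands are described after the pairs, and the islands without any shared base, called private, come first.

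The private islands were narrow and weak. There were 5834 private H4K5bu islands, 14.5% of that list, which held 4.16% of its ChIP reads and 6.56% of its bases. Their median width was 1800 bp, with 59 ChIP reads, 36 input reads and a fold of 2.49, against 3600 bp, 146 ChIP reads and a fold of 3.71 in shared H4K5bu islands. There were 3515 private H4K5ac islands, 9.62% of that list, with 2.82% of its reads. Their median was 2400 bp, 61 ChIP reads, 41 input reads and a fold of 3.16, against 4000 bp, 140 ChIP reads and a fold of 4.73 in shared H4K5ac islands. So in width, reads and fold the medians of both private classes lay below those of the shared islands of the same list, and private acetyl islands were wider than private butyryl islands.

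The share of private islands dropped steeply with the reads in the island. Below 50 ChIP reads 53.3% (51.4 to 55.1) of the H4K5bu islands were private, and 40.3% (38.0 to 42.6) of the H4K5ac islands. From 100 to under 200 reads it was 3.99% and 2.62%. Among islands of 400 reads or more, 2 of 6272 H4K5bu and 3 of 5654 H4K5ac islands were private. In each class below 400 reads the butyryl list had the larger private share. When the H4K5bu list was cut by fold to the length of the H4K5ac list, this order turned from 50 reads upward. From 50 to under 100 reads 22.7% (22.0 to 23.5) of the H4K5bu and 27.7% (26.9 to 28.5) of the H4K5ac islands were then private. Below 50 reads it was 51.5% and 49.1%. Only H4K5bu islands were removed, so the private share of H4K5ac could only rise, and the turn cannot be read apart from the cut. By width, in the full lists, butyryl had the larger private share up to 4000 bp. From 4000 to under 8000 bp the acetyl list had the larger one, 3.80% (3.46 to 4.17) against 2.47% (2.17 to 2.79).

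**Figure D1:**
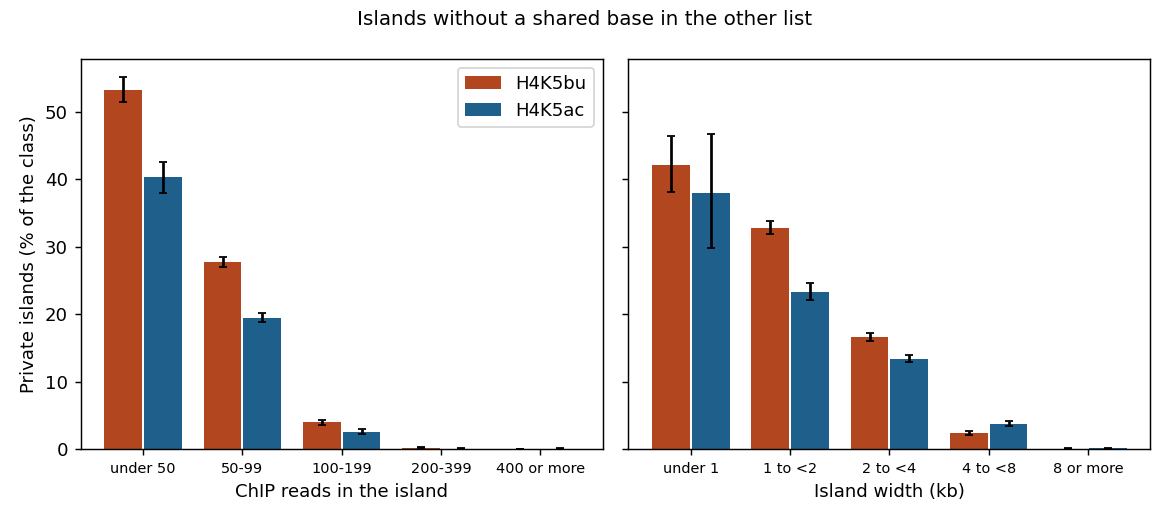
Private islands as a percent of all islands of the list in each class of ChIP reads (left) and of width in kb (right), H4K5bu in red-brown and H4K5ac in blue, with 95% exact binomial intervals. Both marks drop from 53.3% and 40.3% private below 50 reads to under 0.1% at 400 reads or more, and the order of the marks turns between 4 and 8 kb.

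Private butyryl islands lay nearer to acetyl islands than private acetyl islands lay to butyryl islands. The median distance from a private H4K5bu island to the nearest H4K5ac island was 9600 bp, and 35.3% had one within 5000 bp. For shared H4K5bu islands, measured to the nearest acetyl island they did not overlap, the median was 16000 bp and the share 20.4%. From a private H4K5ac island to the nearest H4K5bu island the median was 19200 bp with 17.8% within 5000 bp, against 14600 bp and 24.6% for shared H4K5ac islands. At the threshold of the overlap itself, 96 of 35108 overlaps were a single window of 200 bp, with median folds of 2.70 for butyryl and 3.41 for acetyl. Just outside it, 35 private H4K5bu and 6 private H4K5ac islands touched the other list without sharing a base, with median folds of 2.30 and 2.44.

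Other marks overlapped private islands less often than paired ones. H4K8bu, butyrylation of the neighbouring lysine, overlapped 91.4% of the H4K5bu islands in 1:1 pairs and 23.1% (22.1 to 24.2) of the private H4K5bu islands. It overlapped 36.8% (35.2 to 38.4) of the private H4K5ac islands. H4K8ac overlapped 72.2% of the paired islands of each list, 7.61% of the private H4K5bu and 8.73% of the private H4K5ac islands. The last share was 18.7% with the H4K5bu list cut by fold to the H4K5ac length, which made more H4K5ac islands private. At least 1 of the 2 lysine 8 marks overlapped 92.8% of the paired H4K5bu islands, 27.1% of the private H4K5bu and 39.9% of the private H4K5ac islands. In spermatocytes at least 1 of the 4 marks overlapped 75.6% of the paired H4K5bu islands, 41.0% of the private H4K5bu and 47.6% of the private H4K5ac islands. No other list of the series had an island at 43.7% of the private H4K5bu and 31.3% of the private H4K5ac islands, against 3.54% of the paired H4K5bu islands.

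Since private islands were smaller, the same shares were taken among islands with 50 to under 100 ChIP reads, where the median width was 2000 bp for both private and paired H4K5bu islands. There H4K8bu overlapped 24.8% (23.4 to 26.1) of the private and 79.8% (79.0 to 80.6) of the paired H4K5bu islands. A spermatocyte mark overlapped 40.8% (39.2 to 42.3) and 46.0% (45.0 to 47.1). For H4K5ac, with median widths of 2600 bp for private and 2400 bp for paired islands, H4K8bu overlapped 37.6% (35.7 to 39.5) against 81.0% (80.2 to 81.7). A spermatocyte mark overlapped 48.5% (46.5 to 50.4) of the private and 46.3% (45.3 to 47.2) of the paired H4K5ac islands. In this class of reads private and paired islands therefore differed far more in H4K8bu of the same cells than in having any of the 4 marks of the other stage. H4K8ac of the same cells overlapped 7.91% of the private and 39.0% of the paired H4K5bu islands, and 8.65% and 40.7% of the H4K5ac islands. These are unlike measures, 1 list against any of 4. Private islands were also defined by a list of the same cells. At 100 to under 200 reads private and paired H4K5bu islands also differed widely in spermatocyte marks, though still more in H4K8bu. There H4K8bu overlapped 34.1% of the private and 96.6% of the paired H4K5bu islands, and a spermatocyte mark 40.2% and 79.5%. For H4K5ac the shares there were 66.4% and 98.4% for H4K8bu and 74.6% and 85.7% for a spermatocyte mark. At 50 to under 100 reads the median folds also differed, 2.42 private against 2.95 paired for H4K5bu and 3.08 against 3.60 for H4K5ac. At folds of 2 to under 3 H4K8bu overlapped 24.4% of the private and 84.4% of the paired H4K5bu islands and 35.7% and 75.9% of the H4K5ac islands. A spermatocyte mark overlapped 38.6% and 51.8% of the H4K5bu and 37.9% and 48.1% of the H4K5ac islands at these folds. At folds of 4 to under 6 it overlapped 56.7% of the private and 93.7% of the paired H4K5bu islands, whose median widths were 1200 and 5200 bp. The H4K8 lists shared the round spermatid input with both K5 lists, while the spermatocyte lists had another input.

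**Figure D2:**
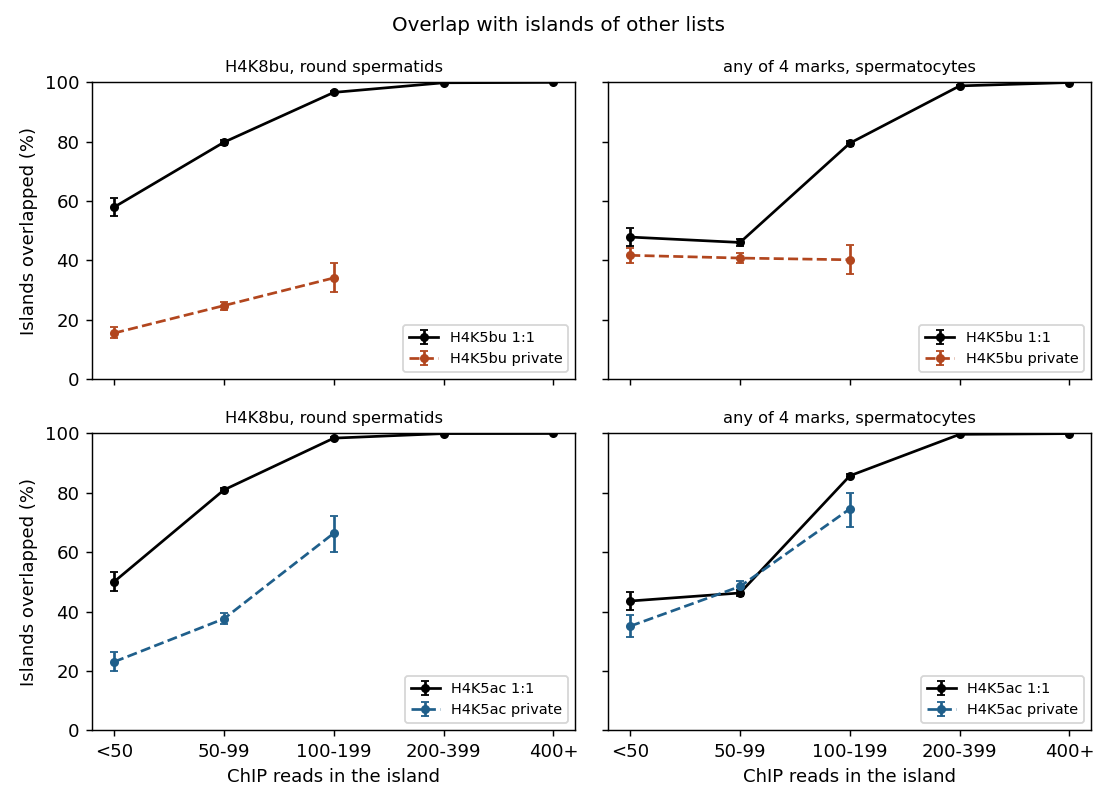
Percent of H4K5bu islands (top) and H4K5ac islands (bottom) that overlapped an H4K8bu island of round spermatids (left) or an island of any of 4 marks in spermatocytes (right), by ChIP reads in the island, for 1:1 islands (black) and private islands (colour), with 95% exact intervals. Classes with fewer than 20 islands are not drawn. At 50 to 99 reads the left panels show 24.8% against 79.8% and 37.6% against 81.0%, and the right panels 40.8% against 46.0% and 48.5% against 46.3%.

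The private islands with the most reads had more input than ChIP reads. By the rule for named regions (given with the processing), the first for H4K5bu was chr5:15183601-15188200 (mm9), with 638 ChIP and 803 input reads and a fold of 1.17 (95% exact interval 1.05 to 1.30). For H4K5ac it was chr17:39979801-39986200, with 1175 ChIP and 2010 input reads and a fold of 1.24 (1.15 to 1.33). All 6 private islands named for their reads, 3 a list, had folds between 1.11 and 1.36. The private islands with the highest folds were instead short and had few input reads. The first for H4K5bu was chr1:176533401-176534600, 1200 bp with 63 ChIP and 11 input reads and a fold of 8.44 (4.41 to 17.8), which also carried H4K8ac in round spermatids at a fold of 3.82. For H4K5ac it was chr6:47113801-47116800, 3000 bp with 106 ChIP and 9 input reads and a fold of 24.9 (12.6 to 56.0), with no island of any other list. These regions, like those named below, are not annotated to genes here.

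The edges of paired islands lay near each other but were seldom the same. The median width difference of the 29857 pairs, butyryl minus acetyl, was 0 bp, with 90% of the pairs between -2200 and 2200 bp. Acetyl was wider in 49.6% (49.1 to 50.2), butyryl in 41.9% (41.4 to 42.5), and the widths were equal in 8.44%. The left edges lay within 400 bp of each other in 55.9% of pairs and the right edges in 56.4%. Both edges were identical in 3.01% (2.82 to 3.21), which was 899 pairs, and exactly 1 edge in 28.0%. The butyryl island lay inside the acetyl island in 35.6% and the reverse held in 28.2%, while 33.2% were staggered. At the median pair 76.5% of the joint span of the pair was in both islands.

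The sign of the width difference turned with the width of the pair. When the pairs were put into 5 groups by their joint span, the narrowest group (200 to 2600 bp, 6257 pairs) had a median difference of -200 bp, and acetyl was wider in 53.9% and butyryl in 31.0%. In the widest group (7600 to 124000 bp, 5904 pairs) the median difference was 400 bp, and butyryl was wider in 55.9% and acetyl in 39.2%. Only 1:1 pairs enter these groups, so islands over at least 2 islands of the other list are left out. Among shared islands of 8000 bp or more these were 20.4% for H4K5ac and 9.87% for H4K5bu. Their part in the turn was not tested. The correlation of log2 widths between the marks across the 29857 pairs was 0.86 (Pearson) and 0.84 (Spearman). It is a description over islands that share libraries and input, and islands are not independent replicates.

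**Figure D3:**
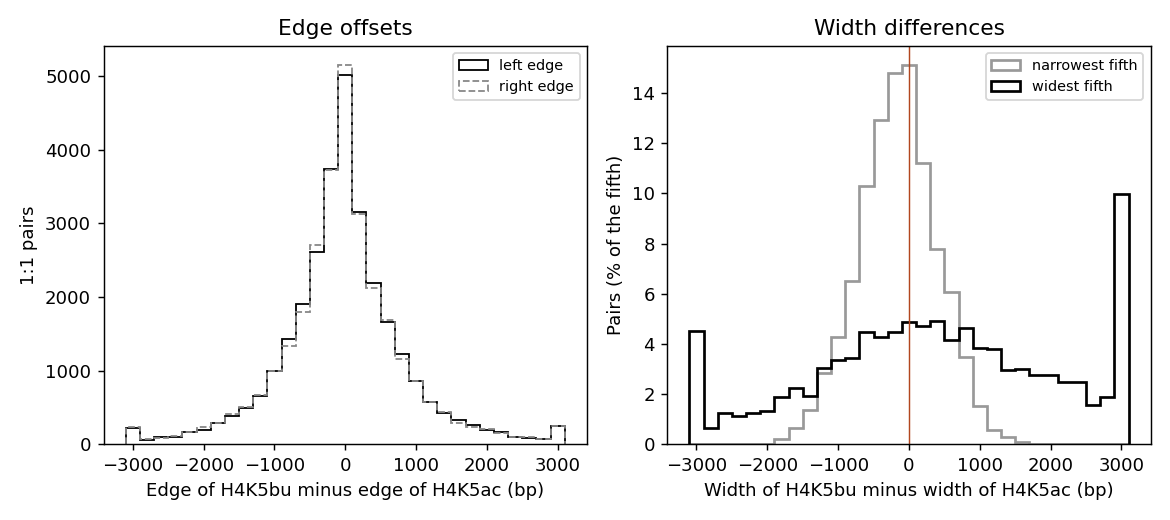
Left, offset between the H4K5bu and H4K5ac edges in bp for the left (solid) and right (dashed) edges of the 1:1 pairs, in bins of 200 bp. Positive offsets are those where H4K5bu reached farther out, so for the left edge the sign is opposite to the axis label. Right, width of H4K5bu minus width of H4K5ac in the narrowest (grey) and widest (black) group of pairs as a percent of the group; in both panels values beyond 3000 bp are drawn at 3000 bp. Both edge distributions peak at 0, and the widest group lies to the right of the narrowest (medians 400 and -200 bp).

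Wide acetyl islands were more often cut into several butyryl islands than the reverse. In 1703 sets 1 H4K5ac island lay over several H4K5bu islands (3530 of them), in 512 sets 1 H4K5bu island lay over several H4K5ac islands (1048), and 205 sets held several of both. Of the shared acetyl islands of 8000 bp or more 20.4% (19.4 to 21.5) lay over at least 2 butyryl islands, and of the shared butyryl islands of that width 9.87% (9.11 to 10.7) lay over at least 2 acetyl islands. Between 4000 and 8000 bp the shares were 6.26% and 1.42%. The pieces were separated by little. The median gap was 800 bp between butyryl pieces, which was the smallest gap between islands in these lists, and 1000 bp between acetyl pieces. At the median set the pieces held 90.9% of the single acetyl island's width and 90.7% of the single butyryl island's width.

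Acetyl stood higher over input than butyryl at most pairs. The median fold was 4.66 for H4K5ac and 3.66 for H4K5bu, and the acetyl fold was the higher in 86.3% (85.9 to 86.7) of pairs. The median log2 ratio of the butyryl to the acetyl fold was -0.37 (95% interval from order statistics, -0.37 to -0.36), a ratio of 0.775, with an SD of 0.34 between pairs. This level rests on the library constants: scaling the lists so that the pairs held equal summed reads moved every ratio by 0.41 and put the median at 0.04. Differences between groups of pairs do not depend on that scaling, and the text turns to these. They can still depend on background, since reads present without enrichment were not subtracted from the folds. Over all islands of a list together the fold was 4.01 for H4K5bu and 5.35 for H4K5ac. The part of background reads in the differences between groups was not tested. The folds of the marks ran together across pairs, with a Pearson correlation of their log2 values of 0.82 (Spearman 0.82, 29857 pairs with a shared input).

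**Figure D4:**
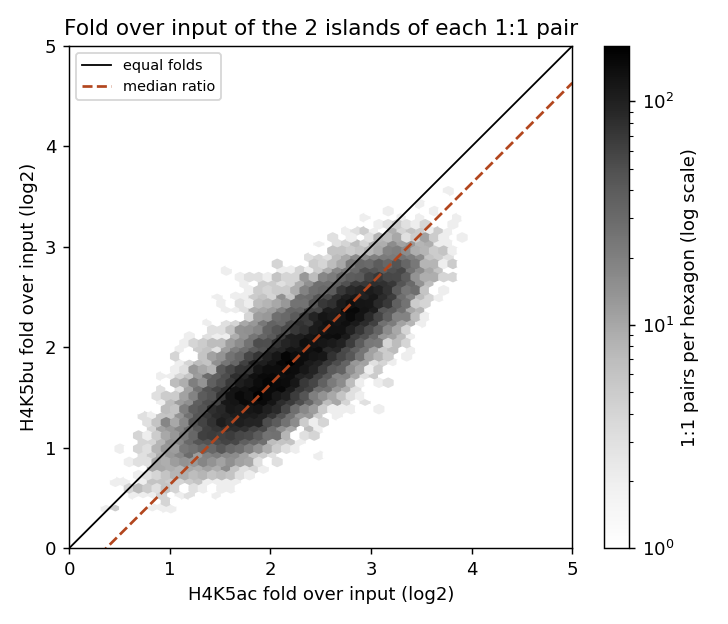
Log2 fold over input of the H4K5bu island against that of the H4K5ac island for the 1:1 pairs, shaded by pairs per hexagon on a log scale. The black line marks equal folds and the dashed line the median log2 ratio of -0.37; 86.3% of the pairs lie below the black line.

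Past a ratio of 1.5-fold, 241 pairs leaned towards butyryl, 0.807% of the 29857 pairs, and 7189 towards acetyl, 24.1%. With equal summed reads the counts were 1822 and 685. Taken from the median ratio instead, 1461 pairs (4.89%) lay more than 1.5-fold above it and 886 (2.97%) below it. The pairs that leaned to butyryl were pairs in which a narrow butyryl island met a wide acetyl island. Acetyl was the wider in 240 of the 241, the median width difference was -1800 bp, and 41.7% of the joint span was shared. By their scaled read totals, that is, all ChIP reads of the 2 islands scaled by the library constants, 94.6% of these 241 pairs had more acetyl than butyryl. In the 7189 pairs that leaned to acetyl, butyryl was the wider in 73.0%, and the scaled read total of acetyl was the higher in 90.7%. Both read-total shares rest on the library constants. The median log2 ratio of read totals was -0.77 in the 241 and -0.47 in the 7189 pairs, and equal summed reads move every ratio by 0.41.

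A stricter view comes from the 5393 pairs (18.1%) whose islands shared at least 90% of their joint span, so that both folds refer to almost the same bases. This set was chosen after the data had been seen. Their median log2 ratio was -0.40 with an SD of 0.23, and the values ran from -1.22 to 0.55. Of these pairs 20.3% (19.2 to 21.4) lay past 1.5-fold towards acetyl, and 0 of 5393 lay past it towards butyryl, which allows a share of up to 0.0556% by a limit of 3 counts (exact 95% upper limit 0.0684%). These counts rest on the library constants. With the lists scaled to equal summed reads of all 1:1 pairs, 78 of the 5393 lay past 1.5-fold towards butyryl and 14 towards acetyl. The median was then 0.0063. In the 899 pairs with identical edges the input reads were the same in both lists, and the SD of the log2 ratio was 0.24, against 0.21 from counting error alone. In the 218 of these whose islands both held 200 reads or more the SD was 0.20 against 0.11, so the spread was wider than counting error at the deeper islands.

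The ratio of folds was lower at wide pairs, and the ratio of read totals was not. From the narrowest to the widest of the 5 groups the median log2 ratio of folds was -0.32, -0.32, -0.33, -0.38 and -0.48. The median log2 ratio of the scaled read totals was -0.43, -0.42, -0.40, -0.40 and -0.41 over the same groups. In the pairs sharing at least 90% of their span the median log2 ratio of folds was -0.34, -0.36, -0.37, -0.40 and -0.45. So the fall of the ratio with width was there in fold over input and was smaller where the edges were nearly the same. By the library constants the read totals leaned to acetyl in all 5 groups but did not fall with width. The part of the wider butyryl islands in this was not tested. Where butyryl was the wider island the median log2 ratio of folds was -0.53 and where acetyl was the wider it was -0.23, while the summed read totals gave -0.28 and -0.57.

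The ratio of folds was also lower at stronger sites, with strength taken from marks that did not enter the ratio. Pairs were put into 5 groups by the mean scaled read density of the H4K8bu and H4K8ac islands over them, where both were called or 1 was. In pairs sharing at least 90% of their span the median log2 ratio of folds was -0.28 (-0.31 to -0.25) at the least dense and -0.48 (-0.49 to -0.47) at the densest group. The median log2 ratio of read totals over all pairs was -0.41, -0.41, -0.38, -0.39 and -0.45, which differed by less from the least dense to the densest group. Within the least dense group the ratio of folds over all pairs was not lower at wide pairs, with a median of -0.31 at the narrowest and -0.25 at the widest. Within the densest group it was -0.35 at the narrowest (436 pairs) and -0.55 at the widest (2779 pairs). Wide and dense pairs were thus those with the lowest butyryl to acetyl fold ratio.

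**Figure D5:**
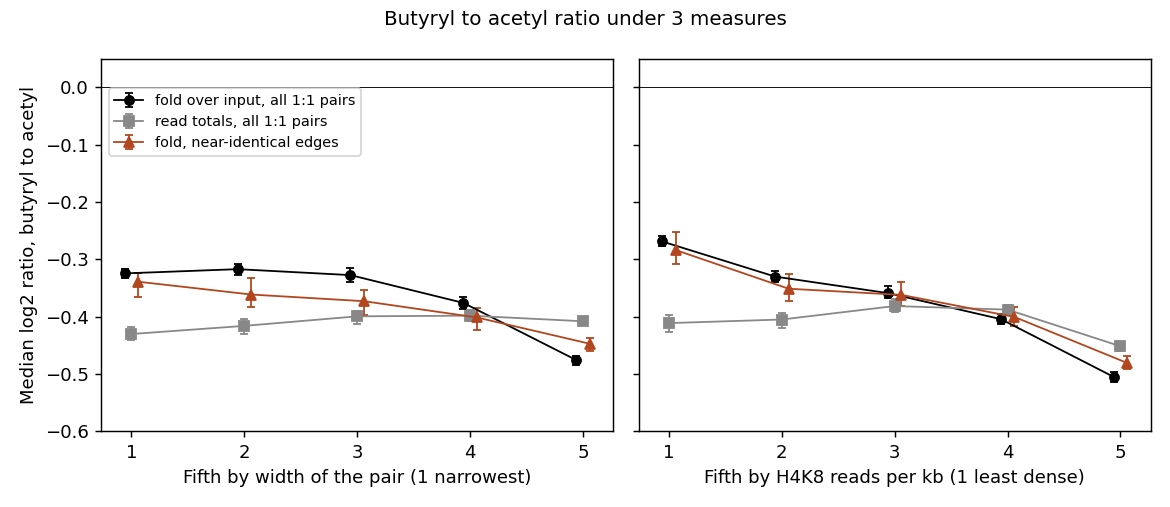
Median log2 ratio of butyryl to acetyl in 5 groups of pairs by joint width (left) and by H4K8 reads per kb (right), as fold over input in all pairs (black circles), as scaled read totals (grey squares) and as fold in pairs sharing at least 90% of their span (red-brown triangles). Bars are 95% intervals of the median from order statistics, which take pairs as independent. By width, fold runs from -0.32 to -0.48 and read totals from -0.43 to -0.41.

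Strength must not be read from 1 of the 2 lists. In 5 groups by the acetyl fold the median log2 ratio ran from -0.12 to -0.57, and in 5 groups by the butyryl fold it ran from -0.42 to -0.35. Each of these groupings uses a term of the ratio itself. By the input density of the pair the median lay between -0.39 and -0.34 in all 5 groups.

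The marks at lysine 8 divided the pairs further. Both H4K8bu and H4K8ac were called over 21124 pairs (70.8%), whose median log2 ratio of lysine 5 folds was -0.41. H4K8bu alone was called over 6164 pairs (20.6%) with a median of -0.28, H4K8ac alone over 441 (1.48%) with -0.19, and neither over 2128 (7.13%) with -0.20. These classes also differ in strength, with a median acetyl fold of 5.42 where both were called and 3.26 where neither was. Within the weakest of 5 groups by mean lysine 5 strength the medians were -0.28 for both, -0.25 for H4K8bu alone, -0.14 for H4K8ac alone and -0.19 for neither, a smaller range than over all pairs. In the 2 strongest groups the difference between both and neither was not smaller, with medians of -0.43 and -0.21 in the fourth and -0.48 and -0.26 in the fifth, where only 162 and 59 pairs had neither. Where both were called, the butyryl to acetyl ratio per kb at lysine 5 had a Pearson correlation of -0.15 with that at lysine 8 (21124 pairs, Spearman -0.15), a weak one over pairs that share libraries.

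Several named pairs show how the edges enter the fold. The highest ratio among the 17251 pairs in which both islands held 100 reads or more was at chr2:33221801-33228400. There a 3000 bp butyryl island with 158 ChIP and 35 input reads had a fold of 6.66 (4.59 to 9.89), inside a 6600 bp acetyl island with 175 ChIP and 107 input reads and a fold of 3.46 (2.71 to 4.44). The ratio of folds was 1.92, and the ratio of the scaled read totals was 0.629 (0.504 to 0.784), on the other side of 1. The next 2, at chr1:78478401-78489800 and chr17:29605801-29610200, had ratios of folds of 1.86 and 1.83 and of read totals of 0.430 and 0.755. In all 3 the fold and the read total thus leaned to different marks. With equal summed reads the ratios of read totals were 0.835, 0.572 and 1.00, so at the third the read total no longer leaned to acetyl.

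The lowest ratio was at chr10:57668801-57691400, where the butyryl island spanned 22600 bp and held 1769 ChIP and 1650 input reads, a fold of 1.58 (1.48 to 1.69). The acetyl island inside it spanned 10000 bp with 1258 ChIP and 340 input reads, a fold of 7.83 (6.94 to 8.85). The ratio of folds was 0.202 and that of the scaled read totals was 0.980 (0.911 to 1.05). The flanks that only the butyryl island included carried most of its input reads. The next lowest were chr10:32658001-32661600 with a ratio of folds of 0.256 and chr6:124909401-124916600 with 0.309, in both of which the butyryl island was again at least 1800 bp the wider.

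At most of the named pairs with nearly the same edges the ratio of folds and that of read totals leaned the same way. Among those whose islands both held 100 reads or more, and chosen after the values had been seen, chr1:19595201-19598600 had the highest ratio of folds. It held 214 butyryl and 115 acetyl ChIP reads over 63 and 66 input reads, folds of 5.01 (3.77 to 6.74) and 3.69 (2.70 to 5.07), a ratio of folds of 1.36 and of read totals of 1.30 (1.03 to 1.64). The lowest was chr8:8690601-8692600, with 108 butyryl and 127 acetyl ChIP reads over 26 and 20 input reads, folds of 6.12 and 13.4, a ratio of folds of 0.456 and of read totals of 0.592 (0.454 to 0.772). At chr2:50455201-50459200, the third highest, the ratio of folds was 1.23 and that of read totals 0.977 (0.757 to 1.26), on the other side of 1. With equal summed reads these were 1.63 and 1.30, both above 1. At chr14:95540601-95545400, with 210 butyryl and 280 acetyl reads, the ratio of folds was 0.494 and of read totals 0.522 (0.435 to 0.627).

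The 3 pairs named for the highest fold in both marks were short, with edges at most 200 bp apart. At chr5:60623401-60626200 the H4K5bu island of 2800 bp had 178 ChIP and 22 input reads and a fold of 11.9 (7.64 to 19.5), and the H4K5ac island of 2600 bp had 152 and 21 reads and a fold of 15.3 (9.67 to 25.5). H4K8bu and H4K8ac there had folds of 8.96 and 5.67. The other 2 strongest pairs, chr3:36450401-36453000 and chr4:145343801-145346600, had butyryl folds of 11.7 each and acetyl folds of 13.9 and 13.5. Their ratios of folds were 0.779, 0.847 and 0.867, and with equal summed reads 1.03, 1.12 and 1.15, so which mark led there depends on the scaling. The 3 named pairs do not stand for strong pairs in general, since the strongest of 5 groups by mean lysine 5 strength had a median joint span of 7200 bp and the weakest 3400 bp. Wide pairs had the higher folds, with medians of 6.83 for acetyl and 4.91 for butyryl in the widest group and 3.99 and 3.16 in the narrowest. The longest span of all, chr8:19914401-20038400 of 124000 bp, was weak. It held 12653 butyryl ChIP reads over 15507 input reads, a fold of 1.20, and had an acetyl fold of 1.27.

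Across the chromosomes the median log2 ratio of folds lay between -0.40 on chromosome 16 and -0.34 on chromosome 3. The private share of H4K5bu islands ran from 12.8% on chromosome 15 to 16.0% on chromosome 12, and that of H4K5ac islands from 7.09% on chromosome 16 to 11.4% on chromosome 13.

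Other pairs of lists gave a scale for these values, without a test of the difference. In spermatocytes, where the butyryl library was 1.42 times as large as the acetyl one, 91.9% of H4K5bu and 78.4% of H4K5ac islands were shared, and the butyryl island of a 1:1 pair was wider by a median of 400 bp. The median log2 ratio of folds was -0.62, and it ran from -0.44 in the narrowest to -0.72 in the widest group of pairs. There the read totals ran the same way, from -0.23 to -0.52. At lysine 8 of round spermatids, where the butyryl library was 0.93 times as large as the acetyl one, 72.5% of H4K8bu and 96.1% of H4K8ac islands were shared. The butyryl island was wider by a median of 1200 bp, and the median log2 ratio was 0.32. This ratio rose with width, from 0.31 in the narrowest to 0.36 in the widest group, and that of read totals from 0.58 to 0.84. Lysine 5 in round spermatids was thus the pair of lists with the smallest median width difference of these 3.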

How the data were processed

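ChIP-seq of 4 marks and an input at each of 2 stages was deposited as 8 island lists, 1 library each. Per the submitters' processing notes, CASAVA 1.8.2, Bowtie2 2.2.5, SICER, deepTools 1.5.11 and mouse build mm9 were used; no source used here gives their settings or roles. For each island the authors deposited a count of reads from the ChIP and one from the input, a p-value and a q-value (all q-values below 0.01) and a fold, which is the ratio of these counts times 1 constant per list. Edges lay on a 200 bp grid, with gaps of 800 bp or more within a list.

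Islands on chromosomes 1 to 19 were intersected (at least 1 bp) in Python 3.11.15 with pandas 2.3.3, numpy 2.4.6 and scipy 1.17.1, and joined into sets. Ratios used the deposited constants. Intervals are 95%: exact Clopper-Pearson for shares, exact conditional binomial for folds and read ratios, order statistics for medians. Reads are not independent molecules, so intervals are too narrow. The functions were tested on simulated lists. The members and lists were chosen with earlier results of these data known.

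The rule for named regions took, among 1:1 pairs with at least 100 reads in both lists, the 3 highest and 3 lowest ratios of folds. It took the 3 private islands per list with the most reads and the 3 with the highest fold (at least 50 reads), the 3 longest joint spans and the 3 largest width differences each way. It also took the 3 pairs with the highest lower fold (at least 10 input reads). Positions are 1-based mm9. The gene table given was of another build, so no island was assigned to a gene. Islands on X and Y were left out. Alternatives for the overlap, the length of the lists, the q-value, the scaling, the measure of the ratio and input-dense islands were computed. Depth limits single islands: the median island held 120 or 124 ChIP reads.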

Additional observations from a re-analysis of the deposited data

Results flagged for a closer look

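Islands on X lay outside the comparison, and both lists had them: 1092 for H4K5bu and 1271 for H4K5ac, a ratio of 0.859 butyryl per acetyl island. Of these, 92.4% (95% exact interval 90.7 to 93.9) of the butyryl and 77.1% (74.7 to 79.4) of the acetyl islands were shared, against 85.5% and 90.4% on chromosomes 1 to 19. The order of the 2 shares was thus the other way round on X, which was not tested. The median log2 ratio of folds over 928 pairs on X was -0.43, against -0.37.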

How the results depend on the processing

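Of 79 recomputed values 49 stayed within the interval of the reported one (for counts, within 1.5 times). Part of these 49 could not move. The scaling and the measure of the ratio do not enter the shares of islands, the widths or the edges. The scaling also does not enter the differences between groups of pairs. With an overlap of at least 50% of the shorter island, 84.7% of H4K5bu and 90.0% of H4K5ac islands were shared and H4K8bu overlapped 25.3% of private H4K5bu islands. With the H4K5bu list cut by fold to the length of the H4K5ac list, the shared percentages turned round, to 88.7% and 85.8%. The H4K5ac list was not cut there, so its shared percentage could only fall. The median log2 ratio was then -0.36 and the difference between the most and least H4K8-dense groups -0.26. H4K8bu overlapped 24.4% of private H4K5bu islands and H4K8ac 18.7% of private H4K5ac islands. With q below 1e-06 the shared percentages were 87.0% and 89.6%, and these overlaps 25.1% and 10.4%. Scaling to equal summed reads put the median log2 ratio at 0.041, with 1822 pairs past 1.5-fold towards butyryl and 685 towards acetyl, so which mark leads at a pair depends on the scaling. With reads per kb the median was -0.35, the H4K8-density difference -0.25, and 140 pairs leaned to butyryl. Without the islands densest in input no value left its interval.

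After the data had been seen, 3 alternatives were added. With read totals the median was -0.41, the widest minus narrowest difference 0.022 in place of -0.15, and the H4K8-density difference -0.040 in place of -0.24. In pairs sharing at least 90% of their span these were -0.40, -0.11 and -0.20, with 0 pairs past 1.5-fold towards butyryl and 1093 towards acetyl, the counts being over fewer pairs. In the same pairs, with the lists scaled to equal summed reads of all 1:1 pairs, the median was 0.0063 and the counts were 78 and 14. No paired analysis was possible because each list is 1 library and no result comes from a test. No library could be left out for the same reason. At the median depth of an island, a difference in ratio within its counting interval was not detectable.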

Other observations

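A short stretch of chromosome 6 held several of the strongest private acetyl islands, and was picked out after its values were seen. Between chr6:47076801 and 47116800 the H4K5ac list had 5 islands of 1000 to 3000 bp with folds of 10.1 to 24.9, on 6 to 13 input reads each. No island of any other list lay there. Just before it, at chr6:47065601-47075800, H4K5ac had a 10200 bp island with 503 ChIP and 99 input reads and a fold of 10.8, and H4K5bu had 2 islands with folds of 3.91 and 10.3. Of the 10 highest H4K5ac folds on the autosomes 5 were private islands and 4 lay in this stretch. Input there was sparse, at 3 to 6.5 reads per kb against a median of 17.2 over all H4K5ac islands, and its part in these folds was not tested.

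Private islands were mostly single. Of 4805 windows of 100 kb with a private H4K5bu island, 3980 held 1, and the most was 8, on chromosome 17 in the window starting at 30900001, where the median fold was 1.54 and input was 33.9 reads per kb. Of 3172 windows with a private H4K5ac island, 2858 held 1, and the most was 5, on chromosome 1 in the window starting at 135900001, with a median fold of 3.41 and 16.4 input reads per kb.

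The butyryl to acetyl ratio per kb at lysine 5 was weakly related between stages. Over 17708 pairs found in both stages the Pearson correlation was 0.13 (Spearman 0.13), a description over pairs whose stages have separate inputs.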
